A study of Mus musculus with 19 samples.

Results

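Neuropeptide receptors are the membrane proteins through which peptide transmitters act on cortical cells, and the mRNA of 10 of their genes was followed here through the depth of the mouse primary somatosensory cortex (S1). The genes are those of the somatostatin receptors Sstr1, Sstr2, Sstr3 and Sstr4, the neuropeptide Y receptors Npy1r and Npy2r, the opioid family receptors Oprk1 and Oprl1, the relaxin receptor Rxfp1 and the orexin receptor Hcrtr2. They were taken by name from the Ensembl gene tables of the S1 libraries, which list 24130 genes in at least 1 library. The rule uses no measured value, but the members were chosen with earlier results of these data known. All 10 were listed and all 10 had a mean of at least 0.1 FPKM, the floor of the tests, so that no member was lost to the filter.

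Male C57BL/6J mice aged 56 days were used, with no treatment, and S1 was cut under visual guidance into 6 segments. Segment A held mostly layers 1 to 3 and segment B mostly layer 4. Most of layer 5 fell into an upper segment C and a lower segment D, and segments E and F were mostly layer 6 and layer 6b. The cuts followed the layers only roughly, so that a layer named here stands for the segment that holds most of it. The RNA of 8 mice was pooled into 1 library for every segment except B. Layer 4 was kept apart by litter, 4 mice in B1 and 4 in B2, and these 2 libraries are the only biological replicates. A further 12 samples, from dorsal and lateral cortex, were not used here.

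Levels are FPKM, fragment numbers scaled to the length of the transcript and to the mapped fragments of the library, so that genes can be compared with each other on a scale per length. Each value has a 95% interval from cufflinks that covers the estimate within a library and not the spread between mice. The libraries held an estimated 31.3 M (A) to 74.9 M (B2) fragments. Known layer genes, summed by layer, followed the dissection. The sum of the layer 6b genes Ctgf, Cplx3 and Nxph4 was 373 FPKM in F, 68.0 in E and 3.91 to 10.9 in the other libraries. That of the layer 2/3 genes Cux2 and Lamp5 was 296 FPKM in A and 32.7 in F. The segments also differed in other cells, with a summed level of 6 oligodendrocyte genes between 287 FPKM in A and 11490 FPKM in F, of 5 leptomeningeal genes of 30.2 FPKM in A and 4.10 to 6.83 FPKM elsewhere, and of 5 striatal genes between 53.8 FPKM in C and 181 FPKM in F. All 6 oligodendrocyte genes, 3 of the 5 striatal genes and none of the leptomeningeal genes were higher deeper by the depth trend test, and no marker was at 0 in any library. Summed over their markers, layer 4 ran from 2.35 FPKM in E to 24.1 FPKM in B2, layer 5 from 8.20 in A to 46.6 in C and layer 6 from 11.3 in A to 92.2 in E. The range was 1155 (A) to 2625 FPKM (D) for 5 pan-neuronal genes and 307 (A) to 578 (D) for 9 interneuron genes. It was 289 (A) to 630 (F) for 6 astrocyte genes, 38.9 (B2) to 76.8 (F) for 5 microglial genes and 28.4 (E) to 64.3 (A) for 4 endothelial genes. For 2 oligodendrocyte precursor genes it was 2.02 (A) to 10.7 (F), and for 3 genes of claustrum and insula 14.6 (B2) to 47.5 (F). The depth trend passed with a slope above 0 for 4 interneuron genes and below 0 for 4. Among the pan-neuronal genes it passed above 0 for 2 and below 0 for 1, Rbfox3. Over all genes tested it passed above 0 for 27.0% and below 0 for 7.54%. The part of these cells in the results on the receptors was not tested, and because the segments are bulk tissue, fewer cells of a type and less RNA per cell cannot be told apart.

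The products of all 10 genes couple to heterotrimeric G proteins. The somatostatin, neuropeptide Y and opioid family receptors act mainly through Gi and Go proteins, which lower cAMP and open GIRK potassium channels, and so tend to quiet the cell that carries them. RXFP1 couples to Gs and raises cAMP, and the orexin receptor HCRTR2 couples to Gq and excites. In the cortex somatostatin and neuropeptide Y come mostly from local GABAergic interneurons, whereas orexin arrives by axons from the hypothalamus.

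Promoter sequences are shown for Sstr2, Sstr4 and Hcrtr2, the genes that were higher in the deep segments and that have an entry in the table of RefSeq promoters used here. Entries were found for 7 of the 10 members. The windows hold the 250 bases upstream of the RefSeq start in GRCm38.p6, a later build than the mm9 positions of the expression tables, and run 5′ to 3′ on the strand of the gene. They lie at chr11:113619077-113619326 (plus strand) for Sstr2, chr2:148395127-148395376 (plus strand) for Sstr4 and chr9:76323624-76323873 (minus strand) for Hcrtr2. Capitals mark every match, on either strand, to TGACG (the core of the cAMP response element), GGGCGG (the GC box), AGGTGT (a T-box core) and TATAAA (the TATA box).
Sstr2: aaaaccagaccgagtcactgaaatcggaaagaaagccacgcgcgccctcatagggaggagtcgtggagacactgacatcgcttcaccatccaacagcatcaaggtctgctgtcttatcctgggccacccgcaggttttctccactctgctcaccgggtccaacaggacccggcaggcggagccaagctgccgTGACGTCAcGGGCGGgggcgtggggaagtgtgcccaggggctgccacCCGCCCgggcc
Sstr4: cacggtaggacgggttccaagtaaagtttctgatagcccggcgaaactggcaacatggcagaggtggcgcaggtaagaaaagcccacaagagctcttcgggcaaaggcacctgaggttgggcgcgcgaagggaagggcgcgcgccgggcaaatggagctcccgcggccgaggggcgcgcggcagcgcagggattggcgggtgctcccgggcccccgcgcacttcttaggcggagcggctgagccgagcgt
Hcrtr2: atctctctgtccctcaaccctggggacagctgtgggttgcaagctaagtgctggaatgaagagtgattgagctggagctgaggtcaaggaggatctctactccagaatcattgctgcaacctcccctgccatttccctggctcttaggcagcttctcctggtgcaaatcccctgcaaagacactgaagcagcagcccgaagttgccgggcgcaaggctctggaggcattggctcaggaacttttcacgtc
In the Sstr2 window TGACG matched on both strands, overlapping as the palindrome TGACGTCA, a whole cAMP response element that begins 58 bases before the start, and the GC box matched at 49 and 11 bases before it. The Sstr4 and Hcrtr2 windows held none of the searched letters, and none of the 3 windows held the TATA box. Among 32841 promoter windows of the same length, TGACG occurred in 17.8%, the GC box in 32.7%, the T-box core in 11.8%, the TATA box in 12.4% and the palindrome, which was searched for after the Sstr2 window had been seen, in 1.55%. The GC content was 63.6% in the Sstr2 window, 67.2% in that of Sstr4 and 55.2% in that of Hcrtr2, with a median of 52.4% over all windows. These matches are a description of letters and not evidence of binding.

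Across the 6 segments, 6 of the 10 receptor genes were higher in deeper cortex and none was lower, by a limma test of a linear and quadratic trend of log2(FPKM + 0.1) along the segments, called at an adjusted p of at most 0.05. They were Sstr1, Sstr2, Sstr4, Oprk1, Rxfp1 and Hcrtr2. Of the 17844 genes tested, 34.5% passed, 27.0% with a linear slope above 0 (higher deeper) and 7.54% with a slope below 0 (lower deeper). The direction is the sign of the slope alone, so that curved trends with a slope near 0 are also counted. The median slope of the 10 genes was 0.39 log2 per segment, against 0.08 over all genes tested. Since the members were chosen with earlier results known, these comparisons with all genes are descriptions. The deposited scale itself moved with depth, since the factors that align the libraries by the median of ratios ran from -0.24 (log2) in A to 0.19 in F. After that rescaling the same 6 genes passed, while the share of calls that were higher deeper fell from 78.2% to 54.5% over all genes. It was 67.2% when the libraries were rescaled without mitochondrial genes and 53.0% after correction for GC content, again with 6 members past the threshold. Leaving out library A took the share of all genes called from 34.5% to 7.25% and left the count of members at 6. Without C, D, E or F in turn the share of all genes was between 18.6% and 21.2%, with 6 or 7 members.

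The trend is a test with 4 residual degrees of freedom that rests on an ordered change through segments of which only B is replicated. With an F-test across the 6 segments instead, which leaves 1 residual degree of freedom, limma called none of the 10 members and none of the 17844 genes, while 6 members and 2904 genes had an unadjusted p of at most 0.05.

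**Figure D1:**
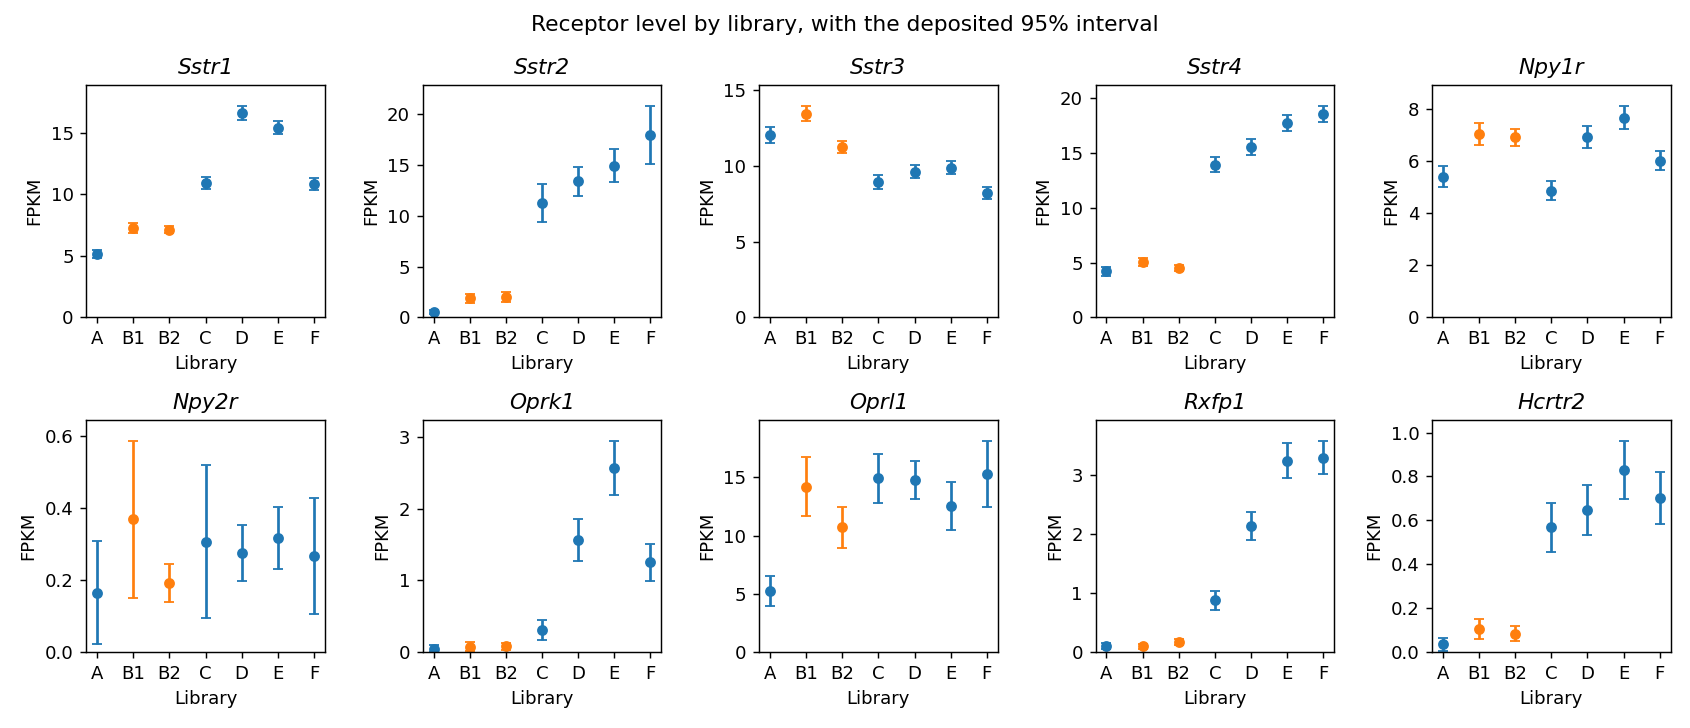
FPKM of each of the 10 receptor genes (vertical axes, each from 0) in the 7 libraries (horizontal axes), with the deposited 95% interval as bars and the layer 4 replicates B1 and B2 in orange. Sstr2, Sstr4, Oprk1, Rxfp1 and Hcrtr2 are low in A, B1 and B2 and higher from C on, while Sstr3 is highest in A, B1 and B2.

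Sstr2 (ENSMUSG00000047904, chromosome 11, 113480656 to 113487319 in mm9) encodes the receptor through which most clinical somatostatin analogs act, and it was nearly restricted to the deep segments. Its level was 0.536 FPKM in segment A, 1.88 and 2.04 in the layer 4 litters B1 and B2, 11.3 and 13.4 in upper and lower layer 5, 14.9 in layer 6 and 17.9 in layer 6b. The 4 libraries from layer 5 downward lay above both layer 4 replicates with no overlap of intervals, and B1 and B2 lay above A. The slope was 0.97 ± 0.08 log2 per segment (SE, adjusted p = 0.0043), and the mean level over C to F was 14.4 FPKM, against 1.25 FPKM over A and B. The step into upper layer 5 was the largest, 5.53-fold from B2 and 5.99-fold from B1, whereas C and D, D and E, and E and F overlapped. Over longer spans E lay above C (1.32-fold), and F above C (1.59-fold) and D (1.34-fold), with intervals apart. Sstr2 lies on the plus strand inside Slc39a11, a zinc transporter gene on the minus strand, and the libraries do not mark strand. Slc39a11 was at 1.49 FPKM in A, 3.57 in C and 5.78 in F, and its part in the reads given to Sstr2 was not tested.

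Sstr4 (ENSMUSG00000037014, chromosome 2, 148221078 to 148226679) had a similar order at a higher base level. It was at 4.19 FPKM in layers 1 to 3, 5.03 (B1) and 4.52 (B2) in layer 4, 13.9 (C) and 15.5 (D) in layer 5, 17.7 (E) in layer 6 and 18.5 (F) in layer 6b. Its slope was 0.50 ± 0.08 log2 per segment (SE, adjusted p = 0.012). The largest step was from layer 4 to upper layer 5, 2.77-fold from B1 and 3.08-fold from B2. Of the smaller steps below it all but that from E to F separated the intervals on the deposited scale. A and B2 overlapped, as did B1 and B2.

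Sstr1 (ENSMUSG00000035431, chromosome 12, 59312791 to 59317023) peaked in lower layer 5 instead of at the bottom of the cortex. It was at 5.17 FPKM in segment A, 7.26 and 7.14 in the layer 4 litters B1 and B2, 10.9 and 16.6 in upper and lower layer 5, 15.4 in layer 6 and 10.8 in layer 6b. All 5 steps between neighbouring segments had intervals apart, with D above C and above E, and F back at the level of C. The slope was 0.27 ± 0.05 log2 per segment (SE) and the trend had an adjusted p of 0.013. In this fit the limma unadjusted p was 0.0013 for the slope and 0.0089 for the curved term. With the curved term left out of the fit, a linear trend alone gave an adjusted p of 0.075.

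Sstr3 (ENSMUSG00000044933, chromosome 15, 78367445 to 78374775), whose product is known for its place in neuronal primary cilia, was highest in the upper segments. It was at 12.1 FPKM in layers 1 to 3, 13.5 (B1) and 11.3 (B2) in layer 4, 8.94 (C) and 9.62 (D) in layer 5, 9.89 (E) in layer 6 and 8.24 (F) in layer 6b. All of A, B1 and B2 lay above all of C to F, and the intervals of B and C did not overlap. The slope was -0.11 ± 0.05 log2 per segment (SE), which did not pass (adjusted p = 0.22). It was also the only one of the 10 members at which B1 and B2 had intervals apart, with B1 higher, whereas this held for 48.5% of all genes tested. The difference between the litters, -0.26 log2, compares with -0.33 between B2 and C.

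The make-up of the somatostatin receptor mRNA differed between upper and deep cortex. Summed over the 4 genes, the level was 21.9 FPKM in segment A, 27.6 and 24.9 in the layer 4 litters B1 and B2, 45.1 and 55.1 in upper and lower layer 5, 57.9 in layer 6 and 55.5 in layer 6b. Sstr3 made up 54.9% of this sum in A, 48.7% in B1 and 45.1% in B2, but between 14.9% and 19.8% in C to F. Sstr2 made up 2.44% in A, 6.81% in B1 and 8.17% in B2, and between 24.2% and 32.3% in C to F. The share of Sstr4 went from 18.1 to 19.1% in A, B1 and B2 to 28.2 to 33.3% in C to F, and that of Sstr1 stayed between 19.5% in F and 30.1% in D. The fifth receptor of the family, Sstr5, had a mean of 0.0157 FPKM and was not tested.

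**Figure D2:**
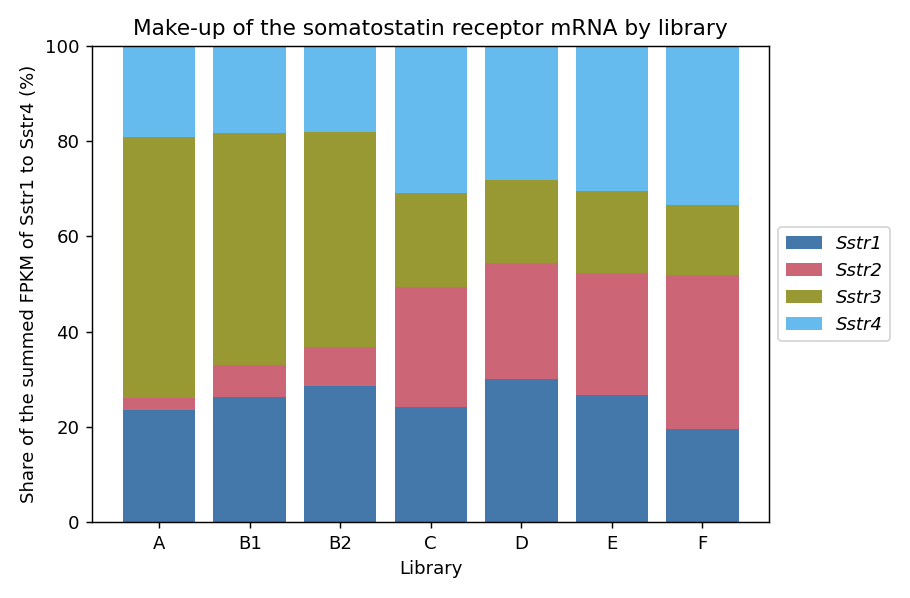
Share (%) of each gene in the summed FPKM of Sstr1, Sstr2, Sstr3 and Sstr4 (vertical axis) in the 7 libraries (horizontal axis). Sstr3 takes 54.9% in A and 14.9% in F, and Sstr2 2.44% in A and 32.3% in F.

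Npy1r (ENSMUSG00000036437, chromosome 8, 69221321 to 69230691), the Y1 receptor, was present through the whole cortex with no trend that passed the test. It was at 5.41 FPKM in layers 1 to 3, 7.05 (B1) and 6.92 (B2) in layer 4, 4.87 (C) and 6.94 (D) in layer 5, 7.67 (E) in layer 6 and 6.03 (F) in layer 6b. Its slope of 0.03 ± 0.06 log2 per segment (SE) did not pass (adjusted p = 0.82), and the direction turned with the rescaling of the libraries. The levels alternated instead of following depth: B lay above A and above C, D lay above C and E above F, each with intervals apart. Between the highest and the lowest segment the difference was 1.58-fold.

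Npy2r (ENSMUSG00000028004, chromosome 3, 82342325 to 82351994) encodes the Y2 receptor, known mainly as a presynaptic autoreceptor, and was near the floor of the measurement. Its level was between 0.165 FPKM in A and 0.369 FPKM in B1, and B2 was at 0.192. The intervals of all neighbours in the order of the 7 libraries overlapped, and the widest interval was 161% of the mean. The slope was 0.07 ± 0.06 log2 per segment (SE, adjusted p = 0.35), so that no difference with depth was detectable at this level. Npy1r made up between 94.1% and 97.3% of the summed level of the 2 genes in every library.

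Oprk1 (ENSMUSG00000025905, chromosome 1, 5578574 to 5592947), the kappa opioid receptor that dynorphins activate, was centred on layer 6. It was at 0.0477 FPKM in segment A, 0.0779 and 0.0825 in the layer 4 litters B1 and B2, 0.313 and 1.56 in upper and lower layer 5, 2.57 in layer 6 and 1.25 in layer 6b. Layer 6 stood above both of its neighbours with no overlap and held 44.1% of the level summed over the segments, and layer 6 was 32.0 times layer 4. The slope was 0.89 ± 0.14 log2 per segment (SE, adjusted p = 0.013). The values in A, B1 and B2 rest on about 2.10, 5.37 and 8.70 estimated fragments, and the interval of A reaches 0. A, B1 and B2 were thus not distinguishable at this depth, and the ratio of layer 6 to layer 4 is imprecise.

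Oprl1 (ENSMUSG00000027584, chromosome 2, 181449721 to 181455690), the nociceptin receptor, was the most abundant member with a mean of 12.5 FPKM. It was at 5.27 FPKM in layers 1 to 3, 14.2 (B1) and 10.7 (B2) in layer 4, 14.9 (C) and 14.7 (D) in layer 5, 12.5 (E) in layer 6 and 15.3 (F) in layer 6b. A stood apart from every other library, with an interval up to 6.56 FPKM that lay below all of theirs. Among the remaining 6, B2 lay below C, D and F with intervals apart on the deposited scale, and all other pairs overlapped. The slope was 0.20 ± 0.07 log2 per segment (SE) and missed the threshold (adjusted p = 0.064), and without A it was 0.06 with an adjusted p of 0.76. Oprk1 was 0.896% of the summed level of the 2 genes in A and 17.0% in E.

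Rxfp1 (ENSMUSG00000034009, chromosome 3, 79448034 to 79541802), the receptor for relaxin, had a slope of 1.00 ± 0.12 log2 per segment (SE, adjusted p = 0.0081), which exceeded that of Sstr2 by less than its SE. It was at 0.106 FPKM in segment A, 0.0987 and 0.168 in the layer 4 litters B1 and B2, 0.879 and 2.14 in upper and lower layer 5, 3.25 in layer 6 and 3.30 in layer 6b. From layer 4 to layer 6 each segment lay above the one before it with intervals apart, and E and F overlapped. The mean over C to F was 2.39 FPKM, against 0.120 FPKM over A and B, and A, B1 and B2 overlapped.

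Hcrtr2 (ENSMUSG00000032360, chromosome 9, 76073710 to 76171385), which binds orexin A and orexin B, had its largest step between layer 4 and upper layer 5. This step was 5.47-fold from B1 and 6.70-fold from B2. It was at 0.0363 FPKM in layers 1 to 3, 0.104 (B1) and 0.0847 (B2) in layer 4, 0.568 (C) and 0.646 (D) in layer 5, 0.830 (E) in layer 6 and 0.703 (F) in layer 6b. Neighbouring segments from C to F overlapped, but E lay above C, 1.46-fold, with intervals apart on the deposited scale. All of C to F lay above A, B1 and B2. The slope was 0.60 ± 0.08 log2 per segment (SE, adjusted p = 0.0087). The value in A rests on about 4.20 estimated fragments.

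**Figure D3:**
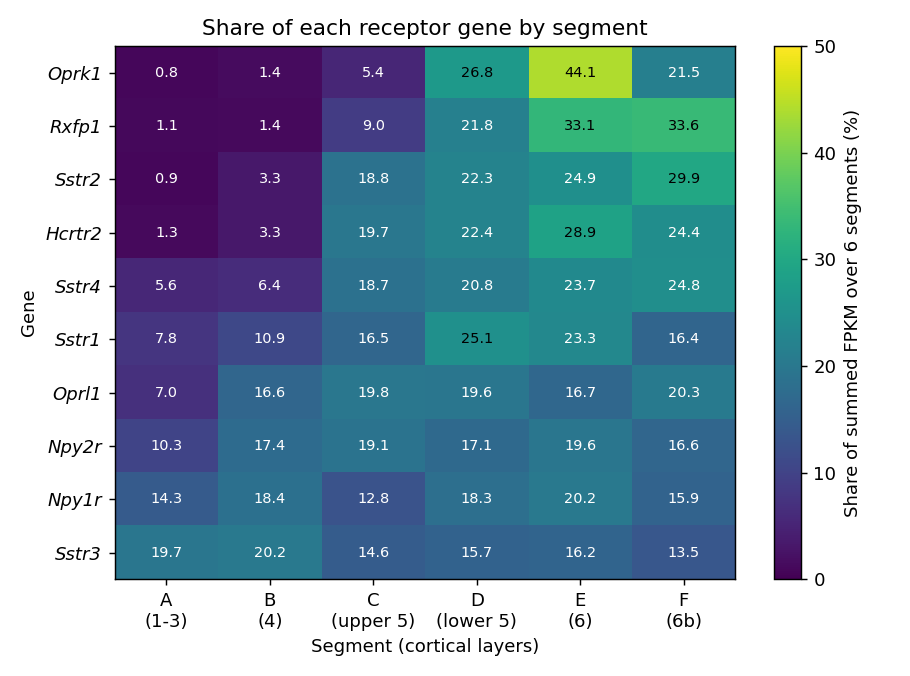
Share (%) of the FPKM of each receptor gene in each of the 6 segments (columns), where B averages its replicates, and the genes (rows) ordered by their share in C to F. Oprk1 has 44.1% in E, Rxfp1 33.6% in F, and Sstr3 has its highest share, 20.2%, in B.

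With B taken as the mean of its replicates, segments C to F held 97.8% of the level of Oprk1, 97.6% of Rxfp1, 95.8% of Sstr2, 95.5% of Hcrtr2, 88.0% of Sstr4 and 81.3% of Sstr1. An even level would give 66.7%, and the median over all genes tested was 70.7%, with a 95th percentile of 84.1%. Those of Oprl1 (76.4%), Npy2r (72.3%), Npy1r (67.3%), Sstr3 (60.1%) and Sstr1 were between the 5th and the 95th percentile of all genes. The segment of the highest level lay among C to F for 9 of the 10 genes, against 66.5% of all genes. It was F for Sstr2, Sstr4, Oprl1 and Rxfp1, E for Npy1r, Npy2r, Oprk1 and Hcrtr2, and D for Sstr1. The intervals of E and F overlapped for Sstr2, Sstr4, Oprl1 and Rxfp1. Rescaling by the median of ratios or without mitochondrial genes moved the highest segment to C for Oprl1 and to E for Rxfp1. Without mitochondrial genes it also moved to E for Sstr4, and with either rescaling it moved for Npy1r and Npy2r.

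The border between layer 4 and upper layer 5 separated the receptors most often. There, 6 members were higher in C with intervals apart from both B1 and B2 (background 19.9%) and 2, Sstr3 and Npy1r, were lower (5.23%). Between A and B 4 members, Sstr1, Sstr2, Npy1r and Oprl1, were higher in the deeper segment (29.8%). From C to D 5 were higher, Sstr1, Sstr4, Npy1r, Oprk1 and Rxfp1 (12.4%), and from D to E 3 were higher, Sstr4, Oprk1 and Rxfp1 (19.1%), and Sstr1 was lower (11.8%). From layer 6 to layer 6b no member was higher, against 22.5% of all genes, and 4 were lower, Sstr1, Sstr3, Npy1r and Oprk1 (17.1%). In all, 25 of the 50 comparisons of neighbouring segments had intervals apart, 18 of them with the deeper segment higher, against 33.6% over all genes. Since the intervals hold no spread between mice and B1 and B2 were apart at 48.5% of all genes, these counts describe the libraries.

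The litters of layer 4 were close for most members. The log2 ratio of B2 to B1, with 0.1 FPKM added to each, was -0.03 for Sstr1, 0.11 for Sstr2, -0.15 for Sstr4, -0.03 for Npy1r, 0.04 for Oprk1 and -0.14 for Hcrtr2, below the median absolute ratio of all genes, 0.32. It was larger for Oprl1 (-0.40), Rxfp1 (0.43) and Npy2r (-0.68), whose intervals overlapped. The added 0.1 FPKM draws the ratio toward 0 for low genes such as Oprk1 and Hcrtr2. Without it, B2 was 1.06 times B1 for Oprk1, 0.82 times for Hcrtr2, 1.71 times for Rxfp1 and 0.52 times for Npy2r. Over 16690 genes transcripts of higher GC content had lower ratios (Spearman's rho = -0.48, a description across genes), and the members ranged from 39.6% for Hcrtr2 to 60.6% for Sstr4.

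Of the genes that encode the ligands, those of the more abundant peptides did not pass the test. Sst, the somatostatin precursor, was at 177 FPKM in segment A, 192 and 154 in the layer 4 litters B1 and B2, 246 and 300 in upper and lower layer 5, 270 in layer 6 and 235 in layer 6b, with a slope of 0.14 ± 0.06 log2 per segment (SE, adjusted p = 0.13). The precursor of the related peptide cortistatin, Cort, was at 14.6 FPKM in A and between 5.00 and 9.36 FPKM elsewhere, and Npy was at 211 FPKM in A and between 108 and 156 FPKM elsewhere. Pdyn, which encodes the dynorphins, was at 15.4 FPKM in C and 1.03 FPKM in E, the segment where Oprk1 was highest (trend adjusted p = 0.095). Pnoc, the nociceptin precursor, stayed between 2.20 and 3.84 FPKM. Of the 9 ligand genes 7 could be tested and 1, Rln1, passed, against 34.5% of all genes tested. This relaxin gene rose from 0.0321 FPKM in A to 0.470 FPKM in F, a slope of 0.42 ± 0.05 log2 per segment (SE, adjusted p = 0.0075). Its mean of 0.172 FPKM was close to the floor of the tests, 0.1 FPKM. Hcrt, whose neurons lie in the hypothalamus, was at 0.0382 to 0.248 FPKM.

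**Figure D4:**
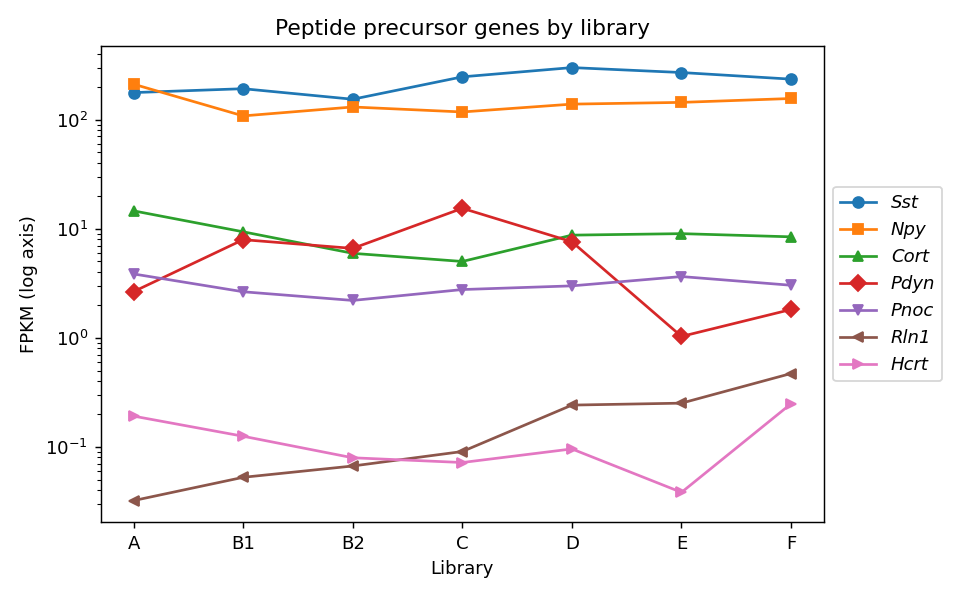
FPKM (vertical axis, logarithmic) of the 7 tested precursor genes of the receptors' peptides in the 7 libraries (horizontal axis). Sst and Npy lie above 100 FPKM in every library, Pdyn has its highest value, 15.4 FPKM, in C, and Rln1 its highest, 0.470 FPKM, in F.

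A list of 49 other neuropeptide receptor genes gives the setting. Of these 45 were listed and 28 had a mean of at least 0.1 FPKM. The trend passed for 8 with a slope above 0 (Ntsr1, Nmbr, Hcrtr1, Rxfp2, Mc4r, Oprm1, Tacr1 and Oprd1), against 27.0% of all genes tested. For 2 it passed with a slope below 0 (Crhr1 and Rxfp3), against 7.54%, and for 18 it did not pass. Among those with a slope above 0, Rxfp2 was highest in C and Oprd1 in D, and both fell from there to F. The median slope of the 28 was 0.11 log2 per segment. Ntsr1, a neurotensin receptor known as a marker of layer 6 corticothalamic neurons, was at 0.400 FPKM in A and 5.51 in E. Nmbr, the neuromedin B receptor, was at 0.0530 FPKM in A and 2.54 in F. Crhr1, the main receptor for corticotropin-releasing hormone, went from 17.2 FPKM in B1 and 12.4 in B2 to 2.28 in F. The most abundant genes of the list, Ntsr2 (mean 39.6 FPKM), Cckbr (26.5) and Adcyap1r1 (20.8), did not pass, and neither did Mchr1, Vipr1, Trhr2, Kiss1r and Npy5r, which also had means of at least 1 FPKM.

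Within families the close relatives of the members can be set side by side. Hcrtr1, the other orexin receptor, had a slope of 0.64 ± 0.07 log2 per segment (SE, adjusted p = 0.0067) and was above Hcrtr2 in every library, by between 1.64 times in C and 8.87 times in A. Among the opioid receptors, Oprm1 was at 0.233 FPKM in A and 1.14 in F (slope 0.36 ± 0.05, adjusted p = 0.012). Oprd1 was at 1.94 FPKM in A, 7.13 in D and 3.56 in F (slope 0.19 ± 0.06, adjusted p = 0.016). Rxfp2, a relative of Rxfp1 that binds Insl3, was highest in upper layer 5 at 2.39 FPKM, where Rxfp1 was at 0.879 FPKM. Npy5r stayed between 0.707 and 1.56 FPKM.

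**Figure D5:**
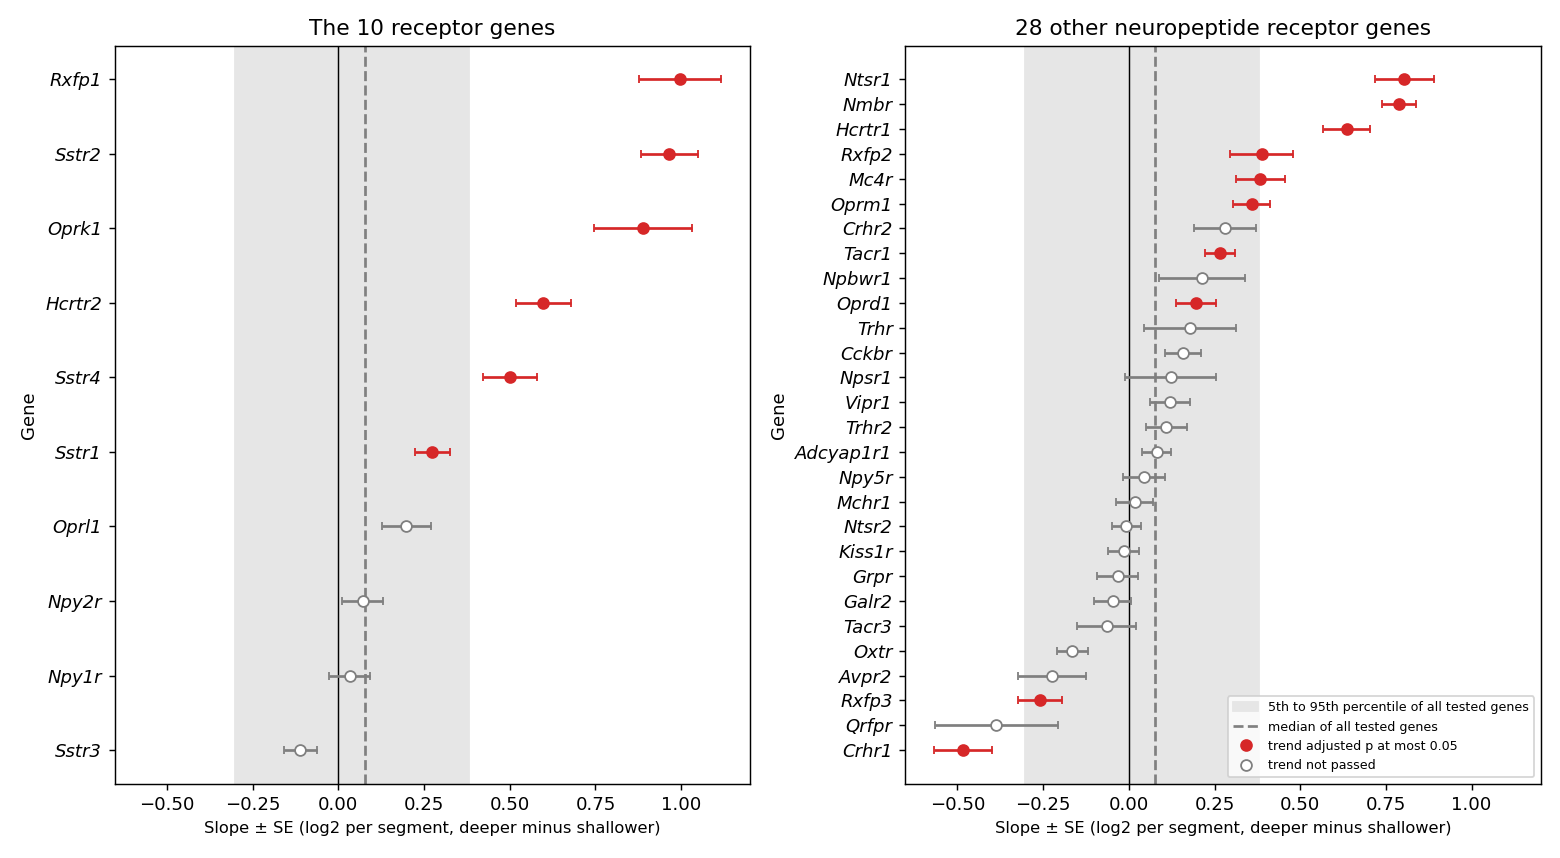
Slope with depth (horizontal axes, log2 FPKM per segment, deeper minus shallower, bars ± SE) of the 10 receptor genes (left) and of 28 other neuropeptide receptor genes (right). Filled points passed the trend test, and the grey band is the 5th to 95th percentile of all genes tested (-0.30 to 0.38). At left Rxfp1, Sstr2, Oprk1, Hcrtr2 and Sstr4 lie above the band. At right Ntsr1, Nmbr, Hcrtr1, Rxfp2 and Mc4r also lie above it, and genes including Crhr1 lie below it.

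The genes of the proteins that carry the receptor signal were mostly abundant, 35 of 36 with a mean of at least 1 FPKM. The 36 encode G protein subunits, GIRK channels, adenylyl cyclases, phospholipases, arrestins and receptor kinases. Of them 13 passed with a slope above 0, against 27.0% of all genes tested. The 1 that passed with a slope below 0 was Gna11 (-0.11), against 7.54% of all genes, and 22 did not pass. The median slope was 0.12 log2 per segment. Gnai2, 1 of the 13, was not simply higher deeper: its slope was 0.0075, with 86.9 FPKM in A, 54.2 in D and 92.0 in F. Among the subunits that inhibitory receptors use, Gnai1 was at 19.7 FPKM in A and 70.9 in F (slope 0.29 ± 0.06, adjusted p = 0.016), and Gnao1 was at 152 FPKM in A and 316 in F without passing (adjusted p = 0.065). Kcnj3, a GIRK channel subunit, was at 11.4 FPKM in A and 41.4 in E (slope 0.23 ± 0.07, adjusted p = 0.039). The highest slope was that of Gnb4, 0.56 log2 per segment, and the lowest that of Kcnj9, another GIRK subunit, -0.12. Gnb4 is also among the genes used here to mark claustrum and insula.

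The patterns of 7 members with a mean of at least 1 FPKM were compared with those of 13163 other genes by Pearson's r of log2(FPKM + 0.1) over the 7 libraries, as a description in which all points share the same libraries. The genes most like Sstr2 were Exoc3, Tmeff1 and Nipsnap2 (r of at least 0.997), and those most like Rxfp1 were Krt80, Nrp1 and Mgat4c. Krt80 was at 0.126 FPKM in A and 9.58 in F, and Nrp1, a semaphorin and VEGF receptor, at 2.44 FPKM in A and 10.6 in E. For Sstr1 they included Rwdd2b and Scg2, for Sstr3 they were Ism1, Mapk4 and Hpca, and for Sstr4 Fkbp5, Gm9828 and Gss. For Oprl1 they were Asb1, Nob1 and Armcx4, and for Npy1r Adamts3, Akap2 and Gpx7, with a highest r of 0.956 for Npy1r. Gss was at 0 FPKM in A, B1 and B2, a value also given to genes not listed in a library. At r of at least 0.95 there were 702 genes for Sstr2, 491 for Oprl1, 179 for Rxfp1, 161 for Sstr4, 62 for Sstr1, 16 for Sstr3 and 1 for Npy1r. Among the members themselves r was 0.994 for Sstr4 and Hcrtr2, 0.982 for Sstr2 and Hcrtr2 and 0.971 for Oprk1 and Rxfp1, and -0.875 for Sstr3 and Sstr4.

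At the level of transcripts, 7 members have 1 listed Ensembl transcript, Npy2r has 2, Sstr2 3 and Oprl1 8. The main Sstr2 transcript (ENSMUST00000146390) took all of the gene's level in A, 82.2% in C and 68.9% in F. None of the Oprl1 transcripts was listed in every library: ENSMUST00000135535 was listed in A alone, at 3.18 FPKM, and ENSMUST00000071585 in all libraries but A, at 6.06 to 11.1 FPKM. Since a transcript missing from a library can be a failed estimate, only transcripts listed in both libraries of a pair were compared. For Sstr2, Npy2r and Oprl1 no pair had 1 transcript higher and another lower, each with intervals apart. Only 1 transcript of Sstr2 and 1 of Npy2r were listed in every library, which limits this comparison.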

How the data were processed

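Polyadenylated RNA of 7 S1 libraries was sequenced by the authors from both ends of the fragments, without marking strand. Reads were mapped with TopHat 1.0.13, and cufflinks 0.8.3 estimated FPKM for Ensembl release 57 models on mm9. The FPKM values that the authors deposited come with the bounds of a 95% interval. The coverage that the authors deposited for transcripts is not normalized for depth and served only to estimate fragments per library and gene, with reads of 50 nt. A gene not listed in a library was taken as 0, and genes listed at more than 1 place were summed. Symbols came by identifier from GENCODE M21 (22021 of 24130 genes). B is the mean of B1 and B2.

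Depth trends were fitted to log2(FPKM + 0.1) with limma 3.58.1 in R 4.3.3 over the 17844 genes that averaged 0.1 FPKM or more, with Benjamini-Hochberg adjustment over all of them. The slope is on this scale, which understates changes of low genes. The design was tested on simulated data. The simulated noise was independent between libraries and held no shift of scale or GC content with depth, so that false trends from such shifts were not covered. Since the mice were pooled, p-values measure only the spread around the trend. Levels of libraries were compared by nonoverlap of the deposited intervals, where B counted as apart only if both B1 and B2 lay on the same side. Widest intervals of at most 50% of the mean FPKM marked 11409 genes, and 6 of the 10 members, as classifiable. The members and the lists of ligands, receptors, signalling partners and markers were chosen with earlier results of these data known. Named genes are all members, the ligands, the other receptors with a mean of at least 1 FPKM or a passed trend, the signalling genes with the lowest and highest slope, and the 3 genes most like each member, of which 1 is not reported here. Gnai1, Gnai2, Gnao1, Kcnj3, Gna11 and the receptors below 1 FPKM were named after their values were seen. Alternatives varied the pseudocount, filters, scale, GC content, trend model and libraries. De novo models and the samples of other areas are not used here.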

Additional observations from a re-analysis of the deposited data

How the results depend on the processing

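The trend passed for 6 members and for 4 to 7 under 17 alternatives, with the 4 among the 6 classifiable members. It passed for none with the F-test across the 6 segments (0), which leaves 1 residual degree of freedom and called 0 genes in all. Sstr2, Sstr4, Oprk1, Rxfp1 and Hcrtr2 passed under every other alternative in which they were tested, with slopes of 0.76 to 1.03, 0.42 to 0.65, 0.35 to 1.31, 0.49 to 1.30 and 0.18 to 0.86 log2 per segment. Oprk1 and Hcrtr2 were not tested at a mean of at least 1 FPKM, and Sstr2, Oprk1, Npy2r and Hcrtr2 were not classifiable. Sstr1 was lost with a linear trend alone. Oprl1, which had missed the threshold, passed under 5 alternatives, with adjusted p between 0.027 and 0.76 over all of them. The slope of Npy1r turned to -0.0499 by the median of ratios, -0.0115 without mitochondrial genes and -0.116 with GC correction, and lay between -0.0061 (without A) and 0.1035 (without F) with a library left out, and that of Npy2r turned to -0.0828 with GC correction. The cause was not tested. Leaving out each library in turn gave 6 to 7 members. Over all genes the share called was 7.25% without A, 12.9% with a linear trend and 18.6% to 21.2% without C, D, E or F, against 34.5%.

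The 25 comparisons of neighbouring segments with intervals apart became 17 with intervals widened 2 times and 24 to 27 otherwise, with no change of sign. Sstr3 was the member with B1 and B2 apart under all of these scales. The members highest in C to F were 7 to 9 of 10, with 7 by the median of ratios, where the highest segment of Sstr3, Npy1r and Npy2r was A or B. Wider intervals cannot change this order. No paired analysis was possible because only segment B has a second library. Depth limits Oprk1, Hcrtr2, Rxfp1 and Npy2r, whose values in library A rest on an estimated 2.10, 4.20, 9.81 and 14.0 fragments.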
